A study of Mus musculus with 2 samples.

Results

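The serine, folate and nucleotide synthesis enzymes are a set of 45 genes whose products make serine and glycine, move one-carbon units on folate, and build purine and pyrimidine nucleotides. A gene was taken as a member when the gene name of a non-control spot equalled its symbol, and each gene was read by its probe with the highest mean signal over both arrays. Of the 45 members 44 had a spot, and 42 were well above background on both arrays, among 14346 genes of 27370 in all that were. Amt had no spot, Gldc was detected on neither array, and Aldh1l2 was well above background on the WT array only. The members were chosen by pathway and by the measured differences between these same 2 arrays, so those differences are a description and not a test.

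The samples were leukaemia-initiating cells, the cells able to pass a leukaemia on to a new host, from mouse acute myeloid leukaemia carrying the MLL-AF9 fusion gene with a YFP reporter. The cells of both groups came from the bone marrow of female mice and were sorted as YFP+, Mac-1+ and c-Kit+. One group was Jam3-null and the other wild type (WT) for Jam3, which encodes a junctional adhesion molecule. Each group was 1 one-colour Agilent array, whose label names 3 mice; how their RNA was combined, the age of the mice and the kind of null allele are not given in the sources used here.

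Serine synthesis starts from a glycolytic intermediate and runs through Phgdh, Psat1 and Psph. Serine then gives a one-carbon unit to tetrahydrofolate and becomes glycine, and the folate enzymes carry that unit in the cytosol and in mitochondria to the forms used for purine rings and for thymidylate. Purines are assembled step by step on ribose phosphate, whereas the pyrimidine ring is made first and joined to ribose phosphate afterwards, and dividing leukaemia cells draw on both routes for RNA and DNA.

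On the array of the Jam3-null cells most measured serine and glycine enzymes, and the enzymes that build purine and pyrimidine rings, had lower signals than on the WT array, while Psph was about 1 measurement error from 0. Phgdh was 13.7-fold and Psat1 4.97-fold lower, and all 12 members of de novo purine synthesis were lower, by 1.63-fold to 3.43-fold. The enzymes that supply deoxynucleotides differed less and went both ways, and Aldh1l1 and Dck were at least 2-fold higher. Every difference below is on the log2 scale, Jam3-null minus WT, with each array first scaled to its 75th percentile, so that a negative value is a lower level in Jam3-null cells. Where a pair of signals is given, the Jam3-null one comes first. In sorted bulk cells, fewer cells that make a transcript and less of it per cell cannot be told apart.

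With 1 array per genotype there is no replicate, no test across samples and no p-value, and precision is limited by the number of arrays. The error given is the standard deviation of a log2 difference from the error model of the scanner software, which was 0.20 to 0.23 for the 42 members and covers measurement error only. It leaves out the spread between mice and between leukaemias. On this scale 31 members were lower by more than 2 such errors, 2 were higher by more than that, and 9 lay within 2 errors of 0. Of all 14346 measured genes 28.0% were lower and 23.0% higher by more than 2 of their own errors.

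Probe and promoter sequences are shown first, as examples from the serine, purine and pyrimidine branches. The 4 probes were picked, after their values were seen, from those of the members that span more genome than their own length. For Adsl the probe is the one that stands for the gene below, and for Phgdh, Cad and Dck it is a dimmer second or further probe. These probes, printed 5′ to 3′ from the array files, each map to a stretch of genome longer than the probe, as probes across an exon junction do. They lie at chr3:98118326-98119034 for Phgdh, chr15:80796591-80797579 for Adsl, chr5:31380314-31380482 for Cad and chr5:89201833-89203150 for Dck, all on mm9, with Phgdh on the minus strand and the others on the plus strand.
Phgdh: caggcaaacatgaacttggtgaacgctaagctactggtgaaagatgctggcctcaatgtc
Adsl: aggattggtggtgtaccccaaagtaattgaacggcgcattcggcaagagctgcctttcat
Cad: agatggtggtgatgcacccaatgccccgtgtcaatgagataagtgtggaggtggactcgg
Dck: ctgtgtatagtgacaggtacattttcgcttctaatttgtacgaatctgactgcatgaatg
The Phgdh probe gave signals of 276.1 in Jam3-null cells and 5379 in WT cells, the Adsl probe 1388 and 3719, the Cad probe 1370 and 4172, and the Dck probe 196.2 and 82.4. The first 3 were thus lower on the Jam3-null array and the Dck probe higher.

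The promoters of Phgdh, Psat1, Shmt2 and Impdh2 are examples, picked after their values were seen, from the members at least 2-fold lower whose window holds no part of a RefSeq gene. Gcsh, Gart, Adsl and Shmt1 are among the others of that kind. Each is the 250 bases before the RefSeq start, 5′ to 3′ on the strand of the gene, from the RefSeq table of GRCm38.p6, and capitals mark matches to the motifs named below. The windows are chr3:98339970-98340219 for Phgdh, chr19:15925060-15925309 for Psat1 and chr10:127522445-127522694 for Shmt2, all on the minus strand, and chr9:108560186-108560435 on the plus strand for Impdh2.
Phgdh: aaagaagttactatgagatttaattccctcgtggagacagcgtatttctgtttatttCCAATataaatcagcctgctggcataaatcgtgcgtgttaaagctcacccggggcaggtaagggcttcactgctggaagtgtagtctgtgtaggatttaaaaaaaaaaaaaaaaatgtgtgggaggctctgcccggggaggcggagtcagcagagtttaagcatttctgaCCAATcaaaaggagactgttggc
Psat1: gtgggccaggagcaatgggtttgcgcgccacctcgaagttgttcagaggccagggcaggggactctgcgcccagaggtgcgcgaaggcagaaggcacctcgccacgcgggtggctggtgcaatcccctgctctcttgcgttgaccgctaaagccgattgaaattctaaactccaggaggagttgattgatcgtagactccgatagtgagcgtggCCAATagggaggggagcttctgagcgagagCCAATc
Shmt2: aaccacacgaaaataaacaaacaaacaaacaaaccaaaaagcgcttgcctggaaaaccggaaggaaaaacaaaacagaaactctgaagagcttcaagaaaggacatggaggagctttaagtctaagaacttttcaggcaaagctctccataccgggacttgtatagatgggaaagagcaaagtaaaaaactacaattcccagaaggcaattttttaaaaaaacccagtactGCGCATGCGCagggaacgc
Impdh2: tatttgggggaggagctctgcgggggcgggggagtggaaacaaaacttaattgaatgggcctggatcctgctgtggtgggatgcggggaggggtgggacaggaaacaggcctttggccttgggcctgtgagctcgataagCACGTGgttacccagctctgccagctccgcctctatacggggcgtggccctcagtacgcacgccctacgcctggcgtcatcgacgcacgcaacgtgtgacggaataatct

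The RefSeq table gave 51 promoter windows of 300 bases, 250 before to 50 after the start, for 41 of the 45 members. 5 motifs were searched on both strands. The E-box CACGTG, which MYC and related factors can bind, was in 6 of the 51 windows, those of Atic, Impdh2, Nme1, Paics and Tyms, and in 7.15% of all 32851 windows. The CEBP-ATF element TGATGNAA, which ATF4 can bind with a C/EBP partner, was in 1 member window, that of Prps1, and in 3.97% of all windows. The NRF1 site, spelled by the capitals in the Shmt2 window, was in those of Shmt2 and Ctps and in 0.971% of all windows. An E2F site, TTTCGCGC, TTTGGCGC or TTTCCCGC, was in those of Ppat and Prps2 and in 1.84% of all windows, and the CCAAT box CCAAT was in 22 of 51 and in 37.4% of all windows. No matches in the member windows overlapped each other, and a match is a description of the sequence and not of binding.

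Of the 42 members 36 were lower and 6 higher in Jam3-null cells after scaling, with a median log2 difference of -0.98, where 55.2% of all genes were lower. At least 2-fold lower were 18 of them, 42.9%, where 8.64% of all genes were, and at least 2-fold higher were 2, where 10.3% of all genes were. Among the 7173 genes brighter than the median signal, 8.5% were lower by 2-fold or more, 7.86% were higher by as much, and the median was -0.15. Over all genes the median was -0.07. Since results of these arrays were known when the members were picked, nothing is read from these shares. Without Phgdh and Psat1, the pair with the largest differences, the median of the remaining 40 was -0.96.

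**Figure D1:**
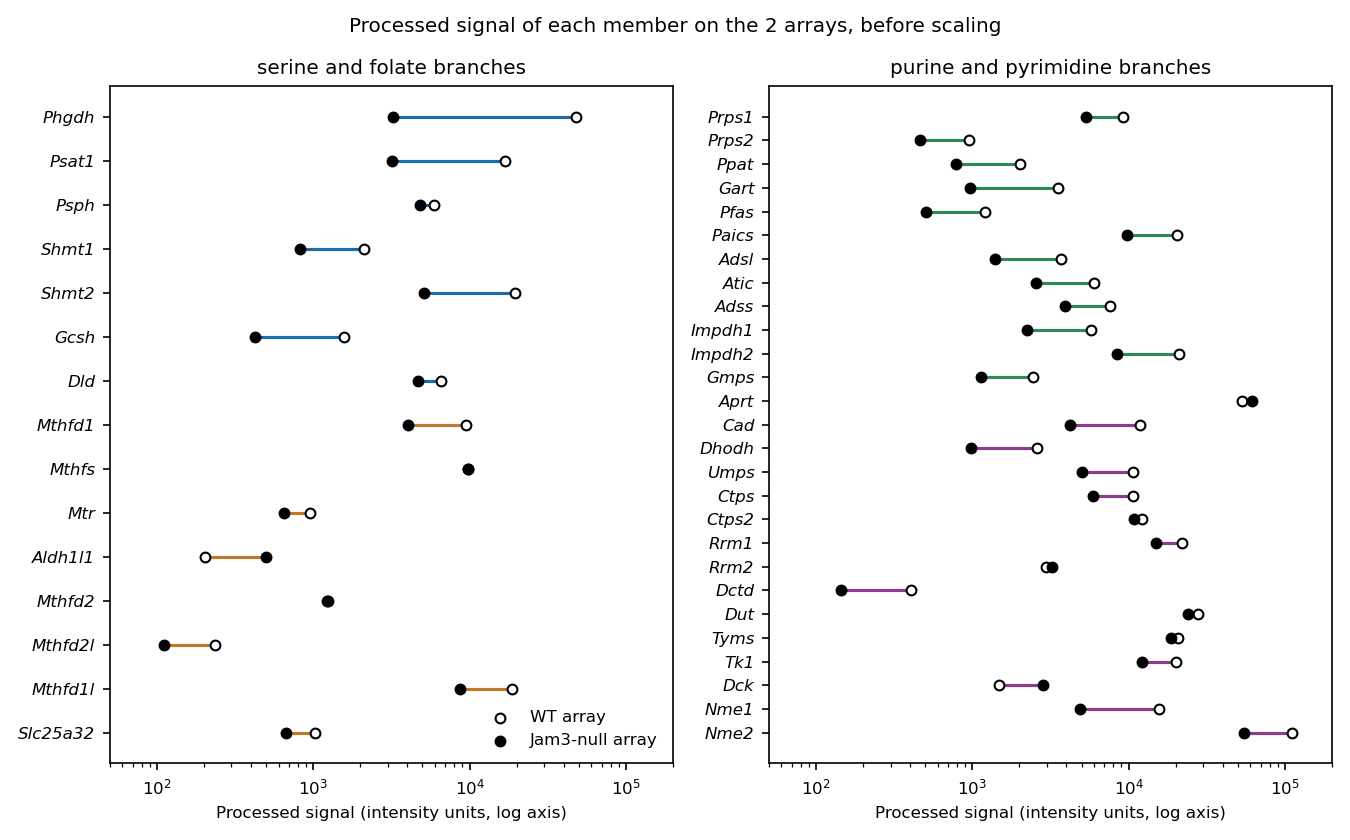
Processed signal of the 42 members measured on both arrays, on a log axis in scanner intensity units before scaling, with 1 point per array (filled, Jam3-null; open, WT) joined by a line coloured by branch. The filled point lies to the left of the open one for most members, by the widest gap for Phgdh (3251 against 47722). It lies to the right for Aldh1l1 (501.8 against 203.6), Dck (2824 against 1484), Aprt (61697 against 53328) and Rrm2 (3231 against 2952).

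In the serine and glycine branch 7 of 9 members were measured, all 7 were lower, and 5 were at least 2-fold lower (median -1.79). Phgdh, phosphoglycerate dehydrogenase, the first enzyme of serine synthesis, read 3251 in Jam3-null cells and 47722 in WT cells at chr3:98117098-98117157 (mm9). The log2 difference was -3.78 ± 0.20 (error-model SD), and the other two Phgdh probes gave -3.94 and -4.19. Every Phgdh probe was therefore more than 10 times dimmer on the Jam3-null array. Psat1, the aminotransferase of the next step, had signals of 3181 and 16916 and a difference of -2.31 ± 0.20 on its single probe. Psph, the phosphatase that releases serine, had 4824 and 5953, a difference of -0.21 from one probe and -0.21 from the other. The last step of the route was thus within about 1 measurement error of 0, while the Psat1 difference minus that of Psph was -2.11 ± 0.29, a value that does not depend on how the arrays were scaled.

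The enzymes that turn serine into glycine were lower in both compartments. Shmt2, the mitochondrial serine hydroxymethyltransferase, had 5142 in Jam3-null cells and 19479 in WT cells, a log2 difference of -1.83 ± 0.20. Shmt1, its cytosolic counterpart, had 819.7 and 2123, a difference of -1.28 from its brighter probe and -1.31 from its dimmer one. Their 2 differences lay 0.55 ± 0.29 apart. Of the glycine cleavage system, which takes glycine apart in mitochondria and feeds one-carbon units to folate, Gcsh, the lipoate-bearing H protein, had 426.5 and 1580, a difference of -1.79. Dld, the dehydrogenase that this system shares with pyruvate dehydrogenase and related complexes, had 4680 and 6593, a difference of -0.40. Another Dld probe gave -0.40 and the dimmest one 0.03. Gldc, the glycine decarboxylase, had signals of 5.62 and 3.37 and no fold is given. The cleavage system as such can therefore be described from the H protein and the shared Dld alone.

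In the folate branch 8 of 9 members were measured, 5 lower and 3 higher, of which 2 were lower and 1 higher by 2-fold or more (median -0.50). Mthfd1, the cytosolic enzyme with 3 activities that interconverts one-carbon forms of folate, had 4066 in Jam3-null cells and 9459 in WT cells, a log2 difference of -1.12 ± 0.20, and its dimmer probe gave -1.21. Mthfd1l, the mitochondrial formate producer, had 8684 and 18568, which puts it on the 2-fold line itself. Mthfd2l, a mitochondrial dehydrogenase, had 111.2 and 234.5, a difference of -0.98. Those 3 enzymes had about 2-fold lower signals. Mthfd2, the mitochondrial dehydrogenase known from dividing and embryonic cells, had nearly equal signals of 1233 and 1241 and a difference of 0.09 that changed sign with spike-in scaling (-0.0038). Mthfd2 and Mthfd2l lay 1.07 ± 0.30 apart in their differences.

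Of the other folate members Slc25a32, Mtr and Mthfs differed by less than 1.5-fold. Slc25a32, the carrier that brings folate into mitochondria, had 665.1 and 1033, a difference of -0.54. Mtr, the methionine synthase that returns methyl folate to the pool, had 645.7 and 956.2, a difference of -0.47, and its dimmer probe was at -0.06. Mthfs, which recycles a storage form of folate, had 9776 and 9790, a difference of 0.09. Aldh1l1, the cytosolic formyl-folate dehydrogenase that removes one-carbon units as carbon dioxide, stood in the other direction with 501.8 in Jam3-null cells and 203.6 in WT cells, a difference of 1.40 ± 0.21 or 2.64-fold higher. Aldh1l2, its mitochondrial counterpart, had 6.69 and 24.4, which was above background on the WT array only. Set against the dimmest detected signal of the Jam3-null array, it gives no bound in the measured direction, so no fold is given.

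The probes of Aldh1l1 and Aldh1l2 that bridge exons cover matching stretches of these related genes, and the stretches are shown because they tell how alike the probes of these related enzymes are. Of 36 aligned bases 30 are identical, and capitals mark the 6 that differ.
Aldh1l1: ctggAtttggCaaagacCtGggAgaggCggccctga
Aldh1l2: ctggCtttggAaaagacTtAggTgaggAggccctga
Of this pair the Aldh1l2 probe read 5.44 in Jam3-null cells and 19.7 in WT cells, where Aldh1l1 read 501.8 and 203.6. Signal shared between the genes was not tested.

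**Figure D2:**
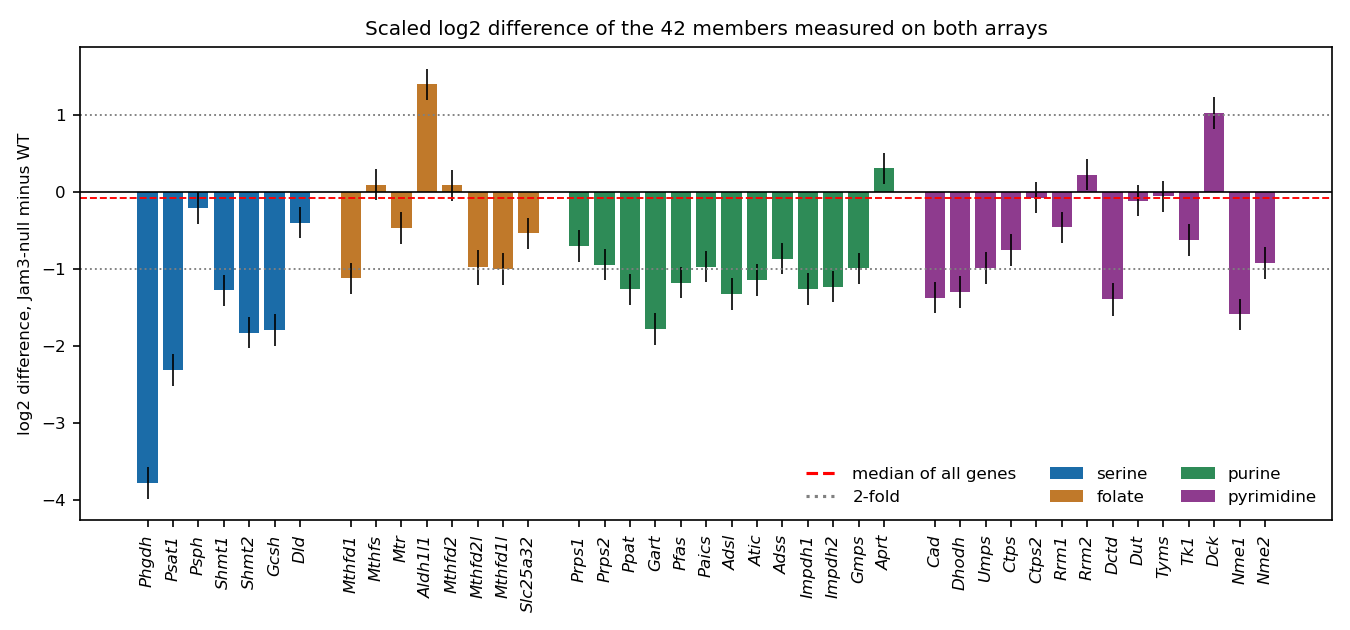
Log2 difference (Jam3-null minus WT) of the 42 measured members after scaling to the 75th percentile, as bars from 0 coloured by branch, with error bars of 1 error-model SD, dotted lines at 2-fold and a dashed line at the median of all genes (-0.07). The purine bars from Prps1 to Gmps all lie below 0 between -0.70 and -1.78, while the folate and pyrimidine branches hold bars on both sides.

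In the purine branch all 13 members were measured, 12 were lower and 7 at least 2-fold lower (median -1.14). The 12 lower members are those of the de novo route from ribose phosphate to AMP and GMP, and they lay between -1.78 and -0.70 (median -1.16). Prps1 and Prps2 make the activated ribose phosphate that the route starts from. Prps1 had 5331 in Jam3-null cells and 9270 in WT cells, a log2 difference of -0.70, and its dimmer probe gave -0.64. Prps2 had 460.9 and 947.8, a difference of -0.94, and its dimmer probe gave -0.60. Both were lower by less than 2-fold.

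The 6 enzymes that assemble the purine ring were all lower, 5 of them at least 2-fold (median -1.22). Ppat, the amidotransferase that commits the route, had 788.5 in Jam3-null cells and 2025 in WT cells, a difference of -1.26 ± 0.20, and its other probe gave -0.81. Gart, a protein that carries 3 steps and takes a formyl group from folate, had 970.7 and 3560 at chr16:91624630-91624689 (mm9), a difference of -1.78 ± 0.20 and the lowest of the purine members. Its other measured probe gave -1.01, so the size for Gart depended on the probe. Pfas, the amidotransferase of the middle of the route, had 502.1 and 1215, a difference of -1.18. Paics, which joins 2 steps in 1 protein, had 9745 and 20414, a difference of -0.97, and its dimmer probe gave -0.61. Adsl, which acts in ring assembly and again in AMP synthesis, had 1388 and 3719, a difference of -1.33. Atic, which takes the second formyl group from folate and closes the ring, had 2556 and 6031, a difference of -1.14. No member of this group was equal on the arrays within 2 measurement errors.

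The members of both arms after the ring were lower. Impdh1 and Impdh2, the 2 forms of the dehydrogenase that leads to GMP, had 2249 and 5750, and 8440 and 21145, with log2 differences of -1.26 and -1.23, nearly the same (Impdh1 minus Impdh2, -0.03 ± 0.29). Gmps, which completes GMP, had 1145 and 2436, a difference of -0.99, with its other probes at -1.04 and -0.67. Adss, which leads to AMP and is the only member of that arm, had 3902 and 7600, a difference of -0.87. The related gene Adssl1, listed below with purine salvage and breakdown and named after its value was seen, was brighter and not lower. It had 47910 and 40808, a difference of 0.33. Aprt, which salvages adenine and is the only purine member outside the de novo route, went the other way with 61697 in Jam3-null cells and 53328 in WT cells, a difference of 0.31, and a dim second probe at 0.98.

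Paics and Ppat are neighbours on chromosome 5 on opposite strands, with RefSeq starts 276 bases apart. Their log2 differences of -0.97 and -1.26 lay 0.29 ± 0.29 apart, about 1 measurement error. Nme1 and Nme2, described below, are also neighbours, on the same strand.

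In the pyrimidine branch all 14 members were measured, 12 lower and 2 higher, of which 4 were lower and 1 higher by 2-fold or more (median -0.69). The 3 enzymes of ring assembly were lower together. Cad, a protein with the first 3 activities of the route, had 4246 in Jam3-null cells and 11744 in WT cells, a log2 difference of -1.37 ± 0.20. Its 4 probes were all lower, from -1.51 to -0.57, the last on a dim probe. Dhodh, the dehydrogenase on the mitochondrial inner membrane, had 982.2 and 2581, a difference of -1.30. Umps, which makes UMP, had 5036 and 10653, a difference of -0.98, and its other probe gave -0.43. The 2 synthases that turn UTP into CTP did not go together: Ctps had 5906 and 10650, a difference of -0.75, and Ctps2 had 10826 and 12180, a difference of -0.07 that changed sign in 4 of 11 other settings. The difference of Ctps minus that of Ctps2 was -0.68 ± 0.29.

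The 7 deoxynucleotide enzymes had a median of -0.11, 1 lower and 1 higher by 2-fold or more. Ribonucleotide reductase, which makes deoxynucleotides from ribonucleotides, is built from Rrm1 and Rrm2. Rrm1, the large subunit, had 15002 in Jam3-null cells and 22029 in WT cells, a log2 difference of -0.46, while Rrm2, the small subunit made in S phase, had 3231 and 2952, a difference of 0.23. Tyms, which makes thymidylate with a one-carbon unit from folate, had 18694 and 20780, a difference of -0.06. Dut, which removes dUTP, had 24014 and 27734, a difference of -0.11, and its dimmer probe gave -0.33. The signs for Tyms and Dut changed in 5 and 3 of 11 other settings, so no direction is given for either. Tk1, the thymidine kinase of dividing cells, had 12184 and 20032, a difference of -0.62.

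The remaining members of this branch were further from 0. Dctd, the dCMP deaminase that feeds thymidylate synthesis, had 144.4 and 404.7, a log2 difference of -1.39, and its second probe gave -1.31. Dck, the deoxycytidine kinase that salvages deoxynucleosides and activates cytarabine, had 2824 in Jam3-null cells and 1484 in WT cells at chr5:89211671-89211729 (mm9). Its difference was 1.02 ± 0.20 or 2.03-fold higher, and the other two probes gave 1.02 and 1.35. All Dck probes were thus higher, on or past the 2-fold line. Nme1, a nucleoside diphosphate kinase that makes triphosphates, had 4857 and 15638, a difference of -1.59 ± 0.20. Nme2, a close relative, had 54767 and 111114, a difference of -0.92, and Nme1 minus Nme2 was -0.67 ± 0.29. These genes are close copies of each other, so each value is uncertain, and signal shared between their probes was not tested.

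**Figure D3:**
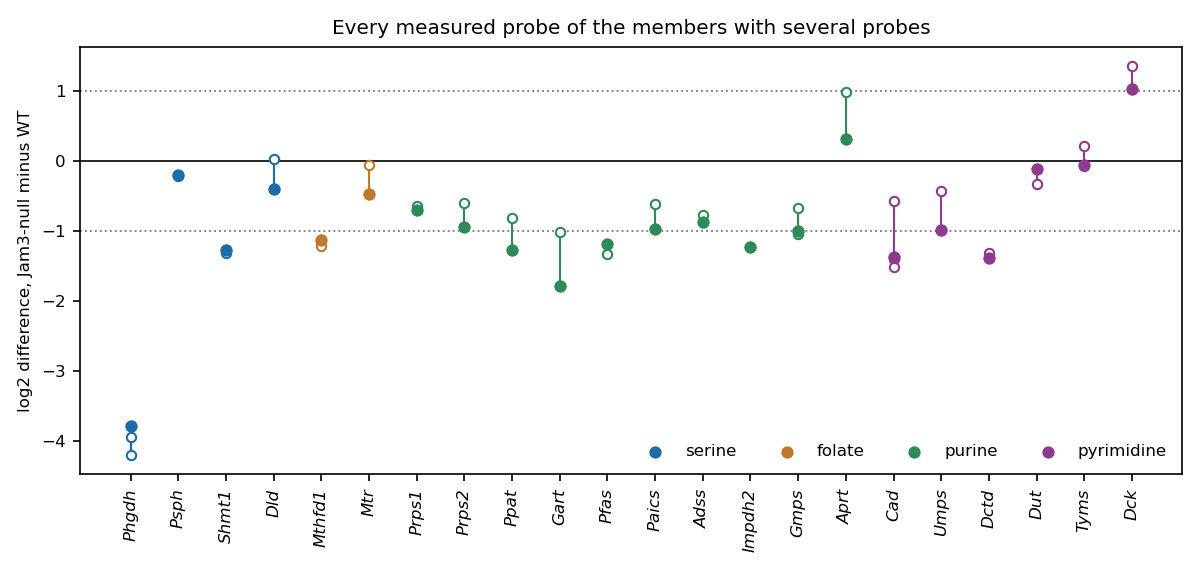
Log2 difference (Jam3-null minus WT) of every probe well above background on both arrays for the 22 members with more than 1 such probe, with the brightest probe of each gene filled and the others open. The probes of 20 members lie on 1 side of 0, those of Dld and Tyms on both, and the widest range is that of Cad (0.94).

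Different probes of a gene are separate readings of it on the same array. Over the 22 members with several measured probes, the median range between the highest and lowest probe was 0.34 in log2, and in 20 of them all probes had the same sign. Of 71 measured member probes 60 were lower on the Jam3-null array. Over all genes, each read by its brightest probe, 55.2% were lower, and nothing is read from this count. Close to the 2-fold line the probe and the scaling set the count: 12 members lay within 1 error-model SD of the line, 5 past it and the rest short of it. At the 1.5-fold line 28 members and 20.4% of all genes were lower. At the 3-fold line 6 members and 2.94% of all genes were lower, and 0 members and 4.96% of all genes were higher. Just past the 2-fold line were Mthfd1l, on the line itself, Mthfd1 at -1.12, Atic at -1.14, Pfas at -1.18 and, on the higher side, Dck at 1.02. Just short of the 2-fold line were Gmps at -0.99, Umps at -0.98, Mthfd2l at -0.98, Paics at -0.97, Prps2 at -0.94, Nme2 at -0.92 and Adss at -0.87.

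Other genes of the same pathways, listed by function, were mixed. Of 14 serine and glycine supply genes 10 were measured, 2 lower and 0 higher by 2-fold or more (median -0.09). Its largest differences were those of Gcat, which breaks down threonine to glycine, at -1.14, the glycine transporter Slc6a9 at -1.13 and the amino acid transporter Slc38a1 at -0.99. The serine transporter Slc1a4, named after its value was seen, had 6.26 in Jam3-null cells and 71.2 in WT cells and was at least 2.58-fold lower, where the bound takes the dimmest detected signal of the Jam3-null array in place of its own. Of 17 folate uptake and one-carbon genes 14 were measured, 4 lower and 0 higher by 2-fold or more (median -0.29). The folate carrier Slc19a1 was at -1.59, Ahcy, which clears the by-product of methylation, at -1.66, and Fpgs, which retains folate in the cell, at -1.28.

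The purine salvage and breakdown genes were spread on both sides of 0, and no test sets them against the de novo members. Of 19 purine salvage and breakdown genes 17 were measured, 2 lower and 6 higher by 2-fold or more (median 0.25), against a median of -1.16 for the de novo purine members. The AMP deaminase gene Ampd3 had 155.6 and 21.1, a log2 difference of 2.98, the guanine deaminase gene Gda 2565 and 1181, a difference of 1.22, and Xdh, the gene of xanthine dehydrogenase, 1459 and 728.9, a difference of 1.10. These 3 genes of purine breakdown were higher on the Jam3-null array, although Ampd3 was dim on the WT array and had an error-model SD of 0.30. The 2 genes at least 2-fold lower, named after their values were seen, were Adk at -1.03 and Guk1 at -1.05. Ampd2, a much brighter AMP deaminase gene named after its value was seen, went the other way with 16287 and 22504, a difference of -0.37. Of 22 pyrimidine salvage and breakdown genes 17 were measured, 3 lower and 1 higher by 2-fold or more (median -0.17). The higher one was Upb1, of uracil breakdown, at 2.66, and the lower ones included the kinase gene Nme4 at -1.39 and the nucleoside transporter gene Slc29a2 at -1.19.

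**Figure D4:**
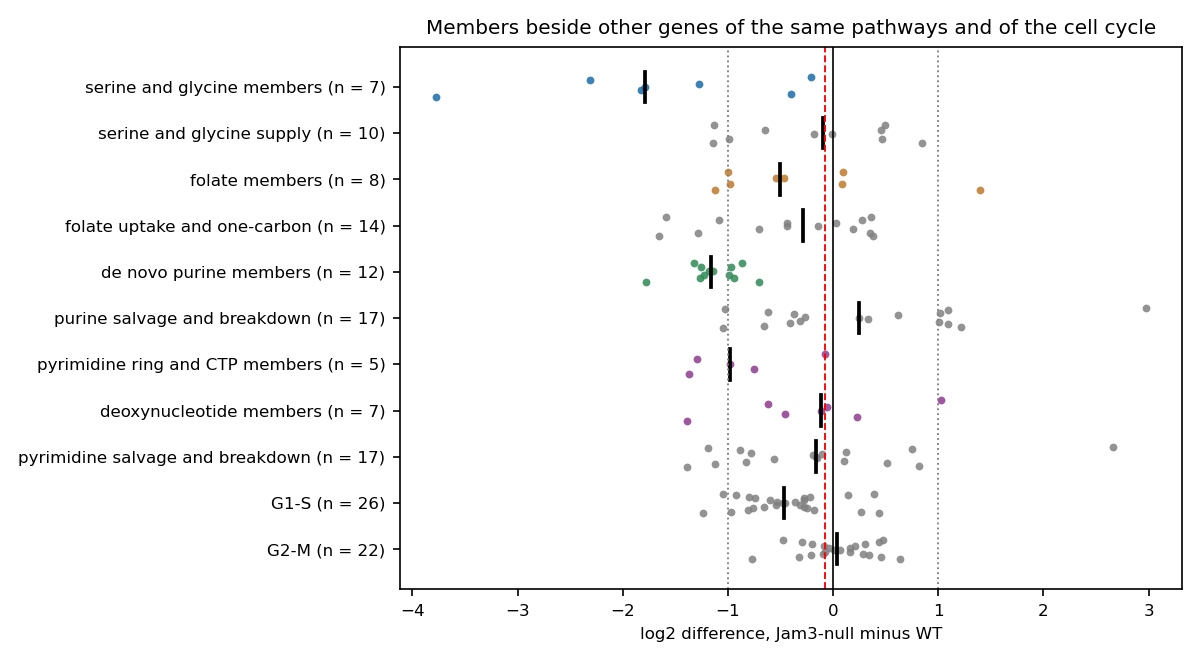
Log2 difference (Jam3-null minus WT) of single genes, 1 point per gene measured on both arrays, for the members (coloured) and for other genes of the same pathways and of the cell cycle (grey), with a black bar at each median, dotted lines at 2-fold and a dashed line at the median of all genes. The de novo purine members lie together around -1.16, while purine salvage and breakdown genes spread from -1.05 to 2.98.

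Cell cycle genes are given beside the deoxynucleotide enzymes because both vary with the share of cells in S phase. Of 26 genes of G1-S and replication, all measured, 22 were lower and 2 were at least 2-fold lower (median -0.46). Of 22 genes of G2-M 10 were lower, 0 differed by 2-fold, and the median was 0.04. Beside these, the median was -0.11 for the deoxynucleotide members and -1.16 for the de novo purine members. Because the members were chosen with these differences known, nothing is read from how the medians compare. The share of cells in each phase was not measured, and its part in these differences was not tested.

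Markers of the sorted cells and of other cells moved with the genotypes as well. All 6 markers of the sorted leukaemia cells were well above background on both arrays, with Kit at 1237 and 1244, and Itgam, the alpha chain of Mac-1, at 3703 and 301.8 (a difference of 3.71). The 2 Jam3 probes were not well above background on either array (28.1 and 5.09 for one, 5.40 and 3.23 for the other), so the targeted gene did not check the labels. Of 14 maturing neutrophil markers 12 had a spot and all 12 were at least 2-fold higher, and their summed signal, in multiples of the 75th percentile of the array, was 1544 in Jam3-null cells and 249.1 in WT cells. For mast cells, basophils and eosinophils 6 of 8 markers were measured, all 6 at least 2-fold lower, with a sum of 8.87 against 48.1. Ms4a2 was below background on both arrays, and Fcer1a (28.5 and 21.7) was well above background on the WT array only. For dendritic cells 4 of 7 measured markers of 8 were at least 2-fold lower, with a sum of 5.43 against 29.2 and Siglech below background on both. Tcf4 (2067 and 14594) and Flt3 (291.2 and 3534) make up most of that sum, and Cd74 (0.52) and Xcr1 (0.53) were on the higher side. The part of these cells in the differences of the members was not tested.

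Sums for other cells were smaller or closer. B cell markers summed to 11.7 against 15.9, with Cd79a and Pax5 below background on both arrays, and T and NK cell markers to 0.429 against 0.267, with Cd8a and Ncr1 below background. Megakaryocyte markers summed to 1.35 against 0.559, with Gp1ba and Ppbp below background. Gp9 (2.08) and Vwf (1.96) were higher, while Pf4 and Itga2b were detected in WT cells only and were at least 2.24-fold and 3.75-fold lower. Endothelial and stromal markers summed to 0.471 against 1.28, with Cdh5, Kdr and Col1a1 below background.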

How the data were processed

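Total RNA was labelled with Cy3 and hybridised to 1 array per genotype, per the labels' protocols. The authors' deposited spot intensities were written by Feature Extraction (Agilent; version 10.7.3.1 per the file headers, 10.7 per the submitters' processing notes), background-subtracted and detrended within each array, and were not normalized between arrays. The authors' deposited value table holds log2 values (median 5.66 in both columns; its normalization is not stated) and served as an alternative only.

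Flagged outlier spots were left out (151 and 163 of 43379 non-control spots; 0 of 77 member spots). Log2 processed signals minus the log2 of the 75th percentile of each array (667.8 for Jam3-null, 713.9 for WT) were averaged over spots of a probe, and the probe with the highest mean signal stood for its gene. Genes are the gene names of the array files, and probe coordinates are on mm9. Whether probes lie in UTRs was not analysed here. On the Jam3-null array 55.0% of spots and on the WT array 61.8% were well above background. Measured genes are those detected (well above background) on each array, and 2-fold was the line for counts. All 45 members are named, and of each other pathway list the 3 with the largest absolute difference, beside genes said to be named after their values were seen. The members and lists were chosen with earlier results of these data known. The result of 1 marker list is not reported here.

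The gene step was tested on simulated data with known shifts. Alternatives were normexp background correction (offset 50), quantile and cyclic loess normalization, 2 other scalings, the authors' table, other probe rules, other filters on dim probes, folds of 1.5 and 3, and other branches for Tyms, Shmt1 and Shmt2. Scaling on 8 E1A spike-in probes was added after the data were examined. R 4.3.3 with limma 3.58.1 and Python 3.11.15 with numpy 2.4.6, pandas 2.3.3 and matplotlib 3.10.9 were used.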

Additional observations from a re-analysis of the deposited data

How the results depend on the processing

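Each of the 42 member differences kept its sign in each setting that gave it a value, except Mthfd2, Ctps2, Dut and Tyms. Of 455 recomputed values 19 moved by more than the error-model SD, but many could not move that far. The filters on dim probes leave a value as it is, and the probe rules do so for members with 1 measured probe. Median centring, scaling over probes detected on each array and spike-in scaling each shift all genes by the same small amount. Quantile normalization and the authors' table gave nearly the same values (median of all members -0.88 each), so they are not separate checks. Of the 20 members past 2-fold, 16 were past it in every setting of normalization, scaling, probe and filter that gave them a value. That was 11 settings, or 10 for Aldh1l1, Pfas and Dctd. The others were Mthfd1 and Atic, each past it in 10 of 11 settings, Dck in 8 and Mthfd1l in 6. The median of all members ranged from -1.07 to -0.81, that of the purine branch from -1.23 to -0.99 and that of the pyrimidine branch from -0.78 to -0.50. The median of all genes was -0.17 with spike-in scaling, an alternative added after seeing the data, and 0.06 with cyclic loess. At 1.5-fold 28 members, 12 of the purine and 8 of the pyrimidine branch were lower, and at 3-fold 6 members were lower and 0 higher, with 1 lower in the purine, 1 in the pyrimidine and 0 in the folate branch. The count at least 2-fold higher was 1 with normexp, with median centring, with the brighter genes only and with spike-in scaling. The folate count at least 2-fold lower was 1 with normexp and with scaling over probes detected on each array, and 0 with cyclic loess. The serine median was -1.53 with no filter on dim probes, where Gldc enters. With Shmt1 and Shmt2 counted as folate enzymes, 3 serine and 4 folate members were at least 2-fold lower and the folate median was -0.76. No paired analysis was possible because each genotype has 1 array. Leaving out a replicate was likewise not possible.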

Other observations

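A list of 18 genes holds factors and targets of the amino acid and stress response and factors known for nucleotide genes. Of these 15 were measured, 7 below 0 and 8 above, with 5 higher and 1 lower by 2-fold or more (median 0.0081). Of all genes 10.3% were higher and 8.64% lower by as much. Atf4, the transcription factor of this response, had 5664 in Jam3-null cells and 5305 in WT cells, a log2 difference of 0.19. The largest differences were those of the stress gene Nupr1 at 2.43, E2f2, a factor of S-phase genes, at 2.42 and the factor gene Atf3 at 2.19. The lower gene was Gpt2, an aminotransferase, at -1.72. Asns, the asparagine synthetase, named after its value was seen, was at -0.25 and Trib3 at 0.01, and the factor genes Myc and E2f1 were at -0.24 each.

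Another pair of this list, named after their values were seen, was detected in Jam3-null cells alone. Chac1, which degrades glutathione, had 657.1 and 17.4, a ratio of 40.4 after scaling. Vldlr, a lipoprotein receptor, had 128.3 and 15.5, a ratio of 8.87. Each ratio divides by the WT signal of the probe itself, which was brighter than the dimmest detected WT signal. Neither WT signal was well above background, so both ratios are uncertain and are not bounds.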
